A study of Rattus norvegicus and Mus musculus with 25 samples.

Results

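Collagen chains, the glycoproteins and proteoglycans that surround them, and the enzymes that fold and trim collagen were followed as a set of 40 genes. They were chosen by gene symbol from 3 deposited expression tables that together hold 66952 symbols. All 40 were found in the mouse table and 37 in both rat tables, while Mfap4, Hspg2 and Col6a3 were not analysed here in rat. Each gene found also passed the filter on low values (at least 1 CPM, a read count scaled to a common library total, in at least 2 rat or 3 mouse libraries), so no gene of the set was lost to it. The set was read in 7 roles: fibrillar collagens, network and other collagens, basement membrane, adhesive and microfibril glycoproteins, matricellular proteins, proteoglycans, and collagen processing.

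The study asked whether reelin and thrombospondin-1, both secreted proteins, act on heart muscle cell proliferation through Vldlr, the very low density lipoprotein receptor. RNA was sequenced from 16 rat and 9 mouse libraries. The rat cells were ventricular cardiomyocytes of 1-day-old SD rats, plated on collagen after pre-plating to remove cells that attach early, and they formed 8 groups of 2 libraries. The si-Vldlr and si-Control_v cells, and in a separate table the si-Thbs1 and si-Control_t cells, had 50 nM siRNA for 60 h. The Reelin cells were treated for 48 h beside PBS cells. The Vldlr OE cells are labelled only as overexpressing Vldlr, and the protocol names an AAV9 vector with the cardiomyocyte promoter cTnT and a transduction of 72 h. Their control group is labelled only Control, and its 2 columns were assigned by elimination. The protocol names AAV9-CMV-GFP as the comparison virus but does not say that the Control libraries received it.

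The mouse libraries were of cardiomyocytes from 1-day-old C57BL/6 mice with 3 genotypes of 3 libraries each. Floxed controls (Vldlr f/f) carry the floxed alleles and no Cre. Cre homozygotes (Myh6-Cre;Vldlr f/f) carry those alleles together with a Cre driven by the cardiomyocyte promoter Myh6, and Cre heterozygotes (Myh6-Cre;Vldlr f/+) have that Cre with a single floxed copy. No group had Cre without a floxed allele. The sources used here do not give the preparation of the mouse cells. Nothing states that libraries within a group were made from different cultures or animals, so each p-value reflects only how far these libraries spread, and that spread may be technical.

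Fibrillar collagens are secreted as procollagens, trimmed outside the cell and laid into fibres that give the heart its tensile strength. Basement membranes are thin sheets of type IV collagen, laminin, nidogen and perlecan that wrap each cardiomyocyte and underlie endothelium. In the heart most interstitial collagen is made by fibroblasts, whereas matricellular proteins such as periostin, tenascin C and osteopontin bind matrix and receptors and are known for high expression during development and after injury.

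The libraries carried the markers of their label, and also those of other heart cells. The 16 cardiomyocyte markers tested summed to between 28851 and 41498 CPM in the larger rat table, and the 15 fibroblast markers outside the matrix set summed to between 5271 and 7577 CPM. In mouse the corresponding ranges were 65049 to 77446 and 1728 to 2518 CPM. In bulk RNA fewer cells of a type and less RNA per cell cannot be told apart. Vldlr was at 183 and 171 CPM with si-Vldlr against 252 and 257 CPM in its control, at 656 and 889 CPM in Vldlr OE against 577 and 379 CPM in Control, and at 71.3, 78.9 and 85.1 CPM in Cre homozygotes against 195, 109 and 164 CPM in floxed controls. Thbs1 was at 745 and 546 CPM with si-Thbs1 against 943 and 892 CPM. The targeted gene moved in the labelled direction in each of these comparisons, by values given without a test. Both siRNA reductions were partial. In mouse no gene was called between genotypes, so Vldlr itself did not pass the test there. In Cre heterozygotes Vldlr was at 98.4, 112 and 100 CPM, which overlapped floxed controls.

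The matrix set made up a large share of the rat RNA. The 37 genes together took 7.92% to 9.95% of all CPM in the larger rat table and 6.51% to 8.08% in the smaller one, and the 40 genes took 0.888% to 1.29% in mouse. Within the larger rat table the PBS and Reelin libraries held the most, at 9.42% to 9.95%, and the lowest libraries were those of si-Control_v, at 7.92% and 8.11%, together with Vldlr OE replicate 1, at 8.10%. Fibrillar collagens were the largest role in rat, with 34054 to 48606 CPM in the larger table. In mouse they summed to between 2474 and 5003 CPM.

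**Figure D1:**
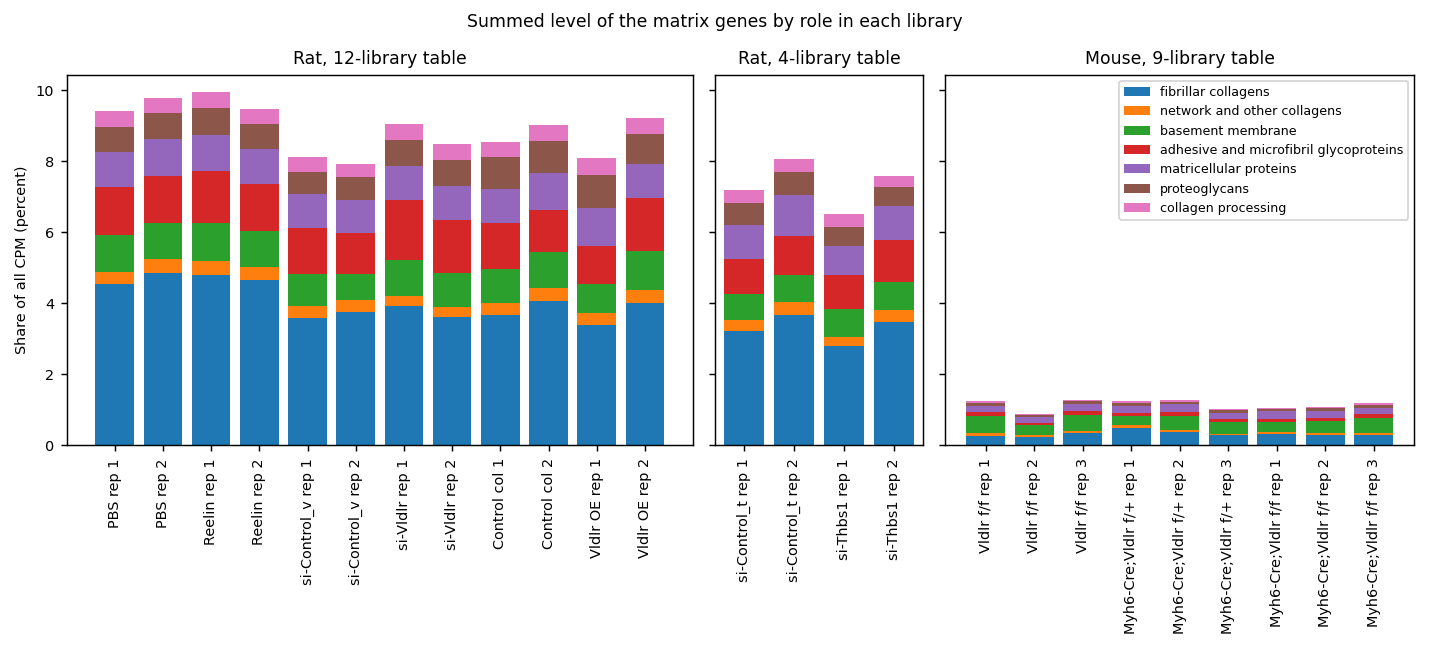
Share of all CPM (percent, vertical axis) taken by the matrix genes in each library (horizontal axis), stacked by role, for the 3 tables. The rat bars reach 6.51% to 9.95% and the mouse bars 0.888% to 1.29%, with PBS and Reelin the tallest rat groups; the 3 tables were normalized separately.

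Values in rat and mouse were set side by side without a test, because the tables were normalized separately and the species differ in culture, annotation and preparation. Of 37 genes, 32 were higher in every one of the 16 rat libraries than in any of the 9 mouse libraries, and the median ratio of rat to mouse medians was 6.55. The share of all genes that separate in this way was not counted, so 32 of 37 cannot be read as particular to matrix genes. The make-up of the RNA differed as well. Mitochondrially encoded transcripts took 14.2% to 24.7% of CPM in mouse and 2.26% to 6.51% in the larger rat table. Col8a1, a short network-forming collagen, differed the most, with a rat median of 249 CPM (140 to 456) and a mouse median of 3.37 CPM (1.34 to 5.07), a ratio of 74.0. Spp1, which encodes osteopontin, had a ratio of 59.8 and Col1a1, the major chain of type I collagen, one of 29.4, while Fn1, fibronectin, had medians of 9496 and 380 CPM.

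Few genes went against that order. Mfap5, a protein of elastic microfibrils, was the only gene lower in every rat library, at 0.689 to 6.36 CPM against 22.8 to 64.9 CPM in mouse. Dcn, Postn, Col15a1 and Tgfbi overlapped between the species. Dcn (decorin) had a rat median of 580 CPM and a mouse median of 250 CPM, and Postn (periostin) 1140 and 671 CPM. For Col15a1, a basement membrane collagen, the medians were 83.3 and 87.4 CPM.

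**Figure D2:**
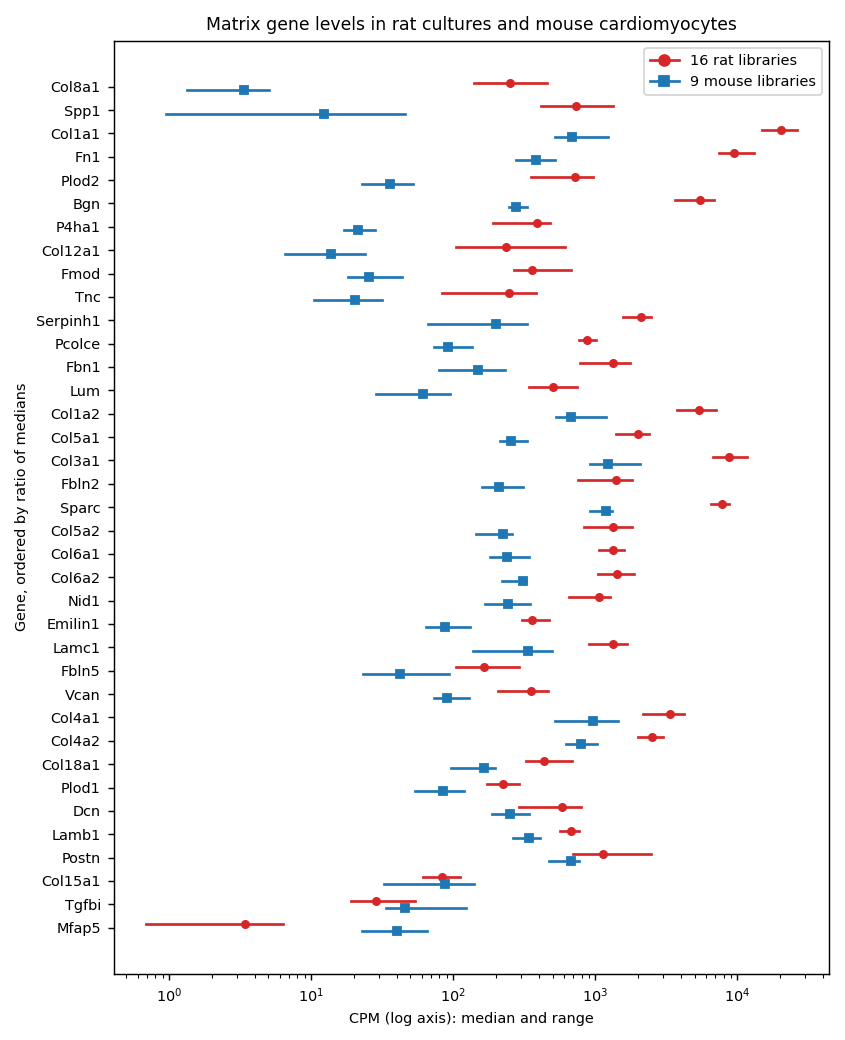
Median (points) and range (lines) of each gene in CPM on a log axis, for 16 rat and 9 mouse libraries, with genes ordered by the ratio of medians. Col8a1, Spp1, Col1a1 and Fn1 lie farthest apart with rat higher, and Mfap5 alone lies apart with mouse higher.

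Partner chains of one collagen were compared within each library. In mouse the CPM ratio of Col1a1 to Col1a2, which join in type I collagen, was 0.882 to 1.12, and in the rat tables it was 3.36 to 4.14 and 3.60 to 4.06. Col3a1, the type III chain, stood at 1.49 to 2.61 times Col1a1 in mouse and at 0.378 to 0.479 times in the larger rat table. These CPM ratios are not per length, so they compare libraries and not the abundance of the chains. The ranges of the species did not overlap for either pair. Col4a1 to Col4a2, the type IV pair, did overlap, at 0.845 to 1.45 in mouse and 1.18 to 1.43 in the larger rat table, as did Col6a1 to Col6a2. Plod2 to Plod1, lysyl hydroxylases that modify different parts of collagen, was at 0.191 to 0.959 in mouse and 1.80 to 5.41 in the larger rat table.

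Per length, the mouse genes could be ordered with GENCODE M21 exons on GRCm38, the mm10 build. The length was the union of all annotated exons of a gene, which can exceed that of the transcripts expressed. The order therefore depends on the annotation and does not give transcript abundance. Sparc, a collagen-binding matricellular glycoprotein (chr11:55394500-55423183), was highest, with a median of 313 CPM per kb of exon (242 to 347) over the 9 libraries, and it did not overlap the gene below it. Col4a1 followed at 128 CPM per kb, then Col3a1 (chr1:45311538-45349706) at 125, Col4a2 at 120 and Col1a1 (chr11:94936224-94953042) at 105, and the ranges of neighbours overlapped from Col4a1 downward. The lowest were Tnc at 2.61, Col12a1 at 0.902 and Col8a1 at 0.430 CPM per kb.

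Among genes outside the set, those whose order of levels over libraries was most like Col1a1 were named by Spearman's rho, as a description, since all share the groups and the libraries. Over the 12 libraries of the larger rat table these were Cspg4 (rho 0.951), Col4a5 and Parvg (0.916 each), Car9 (0.902) and Loxl2 (0.888). Over the 9 mouse libraries they were Ankrd37, Pcnx4 and Zfp560 (0.950 each) and AC163329.3 and Bdh2 (0.933 each). Within the set, Col5a1 was nearest in rat (0.895) and Col1a2 in mouse (0.967).

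After Vldlr siRNA in rat cardiomyocytes no gene of the matrix set passed the test, but most were higher than in si-Control_v. Of 37 genes, 29 had a positive log2 fold change (26 with quantile normalization), with a median of 0.18, while the median of all 13860 genes tested was -0.02. In 23 of the 37 genes both si-Vldlr libraries were above both controls, and in 8 both were below. Among all genes tested 21.1% were higher and 27.4% were lower without overlap. With limma on log2(CPM + 1) and Benjamini-Hochberg adjustment, 0 of 37 were called at an adjusted p under 0.05, where 0.0289% of all genes were called. At an unadjusted p under 0.05 there were 6 higher and 3 lower genes of the set, where 5.38% and 6.39% of all genes passed. The si-Control_v libraries are also compared with PBS below, where 28 of 37 genes were negative. A low value in si-Control_v enters both comparisons, with opposite signs. All fold changes are differences of log2(CPM + 1), so those of genes with few CPM come out smaller than the ratio of the CPM values.

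Fibrillar collagens differed little. Col1a1 was at 21284 and 20077 CPM with si-Vldlr and at 19505 and 20227 CPM in the control, so the groups overlapped, with a log2 fold change of 0.06 ± 0.21 (SE; limma adjusted p = 0.931). Col3a1 was at 8285 and 7588 CPM against 8582 and 9575 CPM, lower in both libraries by 0.19 ± 0.17 in log2 and not past the test (limma adjusted p = 0.669). Col5a2, a regulatory chain of fibril diameter, was at 1364 and 1263 CPM against 1166 and 1053 CPM and had the smallest p of this role (log2 fold change 0.24 ± 0.13, limma adjusted p = 0.504).

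Among network collagens Col6a1, a chain of the beaded filaments that link cells to fibres, was at 1137 and 1056 CPM against 1365 and 1389 CPM. Both libraries were below both controls, with a log2 fold change of -0.33 ± 0.10 (limma adjusted p = 0.324). Its partner Col6a2 was also lower without overlap, at 1406 and 1292 CPM against 1479 and 1538 CPM.

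All 7 basement membrane genes of the set were positive, with a median log2 fold change of 0.28, and 6 of them were higher without overlap. That count of 7 was the same with median centring, with quantile normalization and with any of the 4 libraries left out. Lamb1, the laminin beta-1 chain, was at 756 and 729 CPM against 576 and 588 CPM (log2 fold change 0.35 ± 0.11, limma adjusted p = 0.316). Nid1, nidogen, which bridges laminin and type IV collagen, was at 1073 and 1034 CPM against 893 and 740 CPM. Col4a1 was at 3453 and 3224 CPM against 3137 and 2401 CPM, and Col4a2 at 2592 and 2451 against 2417 and 2042 CPM. Both type IV chains were thus higher without overlap, and si-Control_v replicate 2 was the lowest library for each.

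Col4a1 and Col4a2 lie head to head, so the bases between their starts are upstream of both genes. The run is shown because it is the whole of the sequence that the pair shares between the starts RefSeq gives them, 76 bases on GRCr8 (chr16:84885521-84885596, plus strand, with Col4a1 to the right and Col4a2 on the minus strand to the left). The submitters' processing notes name rn6, another rat build, so only the sequence is taken from GRCr8. No part is in capitals, because none of the 3 motifs searched on both strands lies between the starts: the CCAAT box, the TATA box with the letters TATAAA, and a site with the letters ACGTG.
Col4a1 and Col4a2 between starts: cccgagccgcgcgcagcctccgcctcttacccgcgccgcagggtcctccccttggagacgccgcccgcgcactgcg

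Fn1 was at 13051 and 11593 CPM with si-Vldlr and at 9851 and 8741 CPM in the control. Both libraries were higher, by 0.41 ± 0.21 in log2, and the gene did not pass (limma adjusted p = 0.468). Fbln2, fibulin-2, which links basement membranes to elastic fibres, was at 1595 and 1531 CPM against 1326 and 1019 CPM (log2 fold change 0.43 ± 0.13, limma adjusted p = 0.316).

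Matricellular proteins were divided. Spp1 had the smallest p of the whole set, at 415 and 431 CPM against 659 and 708 CPM, a log2 fold change of -0.69 ± 0.14 with a 95% interval of -1.01 to -0.37 (limma adjusted p = 0.154). Postn was at 1119 and 1160 CPM against 1309 and 1491 CPM, lower without overlap, and Tgfbi was at 22.2 and 23.0 CPM against 23.9 and 42.0 CPM. In the other direction, Tnc, tenascin C, was at 253 and 221 CPM against 201 and 159 CPM, and Sparc at 7803 and 7747 against 7169 and 6752 CPM. Lum, lumican, a small proteoglycan on collagen fibrils, was at 609 and 673 CPM against 536 and 529 CPM (log2 fold change 0.27 ± 0.13, limma adjusted p = 0.446), and 4 of 5 proteoglycans were higher without overlap. The remaining one, Fmod, fibromodulin, was at 282 and 280 CPM against 314 and 380 CPM.

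All 5 collagen processing genes were positive (3 of 5 with quantile normalization), led by Plod2, which hydroxylates the ends of collagen for cross-linking. Plod2 was at 908 and 825 CPM with si-Vldlr and at 619 and 443 CPM in the control, higher without overlap, with a log2 fold change of 0.72 ± 0.15 and a 95% interval of 0.38 to 1.06 (limma adjusted p = 0.169). P4ha1, a prolyl hydroxylase subunit, was at 390 and 390 CPM against 347 and 320 CPM. Serpinh1, the collagen chaperone HSP47, was at 2291 and 2189 CPM against 2020 and 1667 CPM.

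Plod2 is also shown by sequence, since it led the processing enzymes and was the only one of the genes matched with the letters ACGTG upstream. ACGTG is one form of the core of the site bound by hypoxia-inducible factors, and of many other sites. Other forms of that core were not searched. RefSeq promoters on GRCr8 were matched for 31 of the 40 genes. In the 250 bases before the start, on either strand, ACGTG was present in 1 of 31 and in 16.6% of all 33469 promoters, CCAAT in 8 of 31 and in 34% of all, and TATAAA in 4 of 31 and in 12.9% of all. The 200 bases before the start of Plod2 (GRCr8, chr8:101964118-101964317, plus strand) are printed 5′ to 3′, and the capitals mark CACGT, which is ACGTG on the opposite strand.
Plod2 upstream: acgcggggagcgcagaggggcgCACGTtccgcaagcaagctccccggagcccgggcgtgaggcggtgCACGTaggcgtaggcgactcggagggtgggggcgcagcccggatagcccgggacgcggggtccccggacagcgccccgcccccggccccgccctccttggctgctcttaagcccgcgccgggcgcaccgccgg

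**Figure D3:**
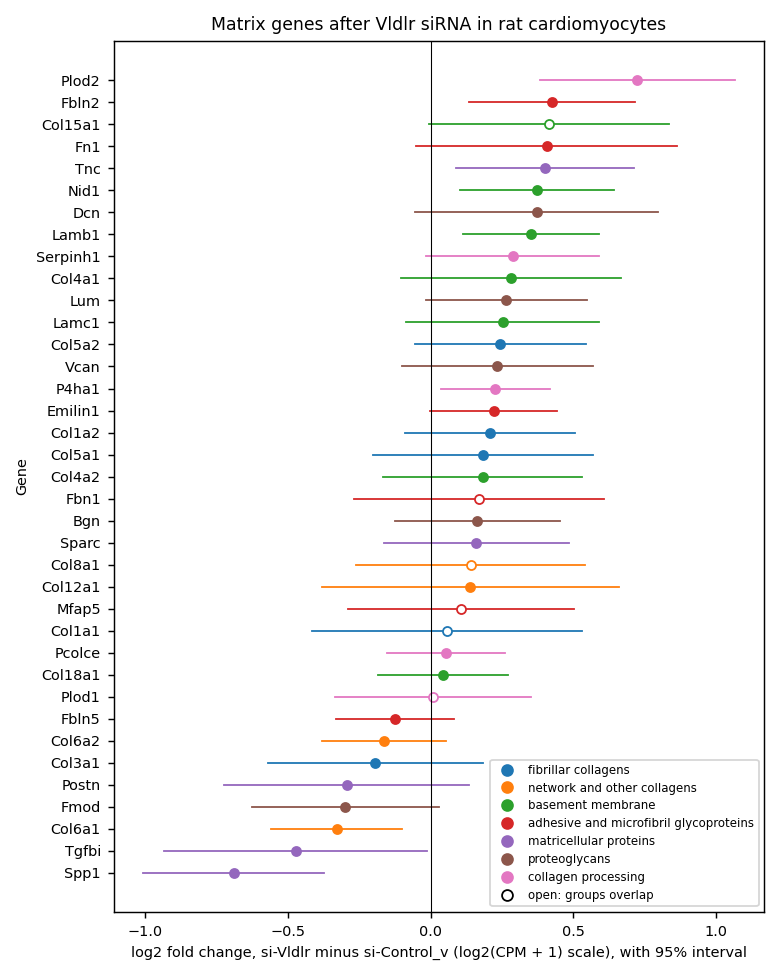
log2 fold change (horizontal axis, log2(CPM + 1) scale) of the 37 genes in si-Vldlr minus si-Control_v, with 95% intervals as lines, colours for roles and open points for groups that overlap. Plod2 at 0.72 and Spp1 at -0.69 lie at the ends, and 29 of 37 points lie to the right of 0 (26 of 37 with quantile normalization).

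Of 80 further matrix genes tested, 36 were positive and 44 negative. Among them 14 of 17 other collagen processing genes were positive (median 0.15) and 16 of 22 other collagen chains negative (median -0.15). The 11 other laminin and basement membrane genes were split, with 5 positive and 6 negative (median -0.05). For the 30 other glycoproteins and proteoglycans, 11 were positive and 19 negative (median -0.10). Of the 80, 0 passed (limma), with 11 higher and 9 lower at an unadjusted p under 0.05. The smallest p was that of Lama1, a laminin alpha chain, at 7.26 ± 1.86 against 2.98 ± 0.383 CPM (SD, n = 2 each; log2 fold change 1.04 ± 0.20, limma adjusted p = 0.138). Next were Srpx (0.40 ± 0.09) and P4ha3 (0.33 ± 0.07). Cell type markers moved with the same contrast. All 16 cardiomyocyte markers tested were lower with si-Vldlr, summing to 32492 and 33746 CPM against 37014 and 41498 CPM, and smooth muscle and pericyte markers summed to 4859 and 4887 CPM against 3658 and 4485 CPM. The 15 fibroblast markers outside the set summed to 5633 and 5651 CPM against 5271 and 5395 CPM, although 6 of the 15 had a negative log2 fold change (median 0.07). The part of these markers in the result was not tested. Without si-Control_v replicate 1 the control rests on replicate 2 alone. The log2 fold change was then 0.96 for Plod2, 0.62 for Fbln2 and -0.87 for Tgfbi. For each of these genes replicate 2 was the control library farther from the si-Vldlr values.

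With Reelin for 48 h no matrix gene passed the test, and the fold changes were small. Of 37 genes 0 were called, where 0.0144% of all 13860 genes were, and 0 passed an unadjusted p under 0.05, where 0.844% of all genes were higher and 0.519% lower (limma). Log2 fold changes ran from -0.06 to 0.31 with a median of 0.02, and the median of all genes was also 0.02. In 4 genes both Reelin libraries were above both PBS libraries, and in 2 both were below, where 19.7% and 13% of all genes were. The 95% interval of each of the 37 genes excluded a change of 2-fold in either direction.

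Col1a1 was at 25471 and 24952 CPM with Reelin and at 24329 and 26229 CPM with PBS. Col3a1 was at 11596 and 10625 against 10678 and 11654 CPM, and Fn1 at 10597 and 9482 against 9806 and 9510 CPM. These groups overlapped, as did those of Postn, at 1046 and 992 against 891 and 1027 CPM, and of Spp1, at 1330 and 987 against 1060 and 1262 CPM. The log2 fold changes of these 5 genes lay between -0.01 and 0.09.

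The genes with the smallest p in each role differed little as well. Mfap5 was at 6.36 and 5.55 CPM against 5.28 and 3.98 CPM, the largest difference in the set (log2 fold change 0.31 ± 0.18, limma adjusted p = 1). Col1a2 was at 6860 and 7037 against 6349 and 6581 CPM, and Tnc at 384 and 368 against 355 and 354 CPM, both higher without overlap and neither past the test. For Col12a1, a collagen on fibril surfaces, the values were 611 and 499 against 522 and 492 CPM. The groups also overlapped for Nid1 (1274 and 1172 against 1196 and 1138 CPM), for Vcan, the large proteoglycan versican (466 and 375 against 401 and 365 CPM), and for P4ha1 (476 and 425 against 478 and 445 CPM). Of 80 other matrix genes 0 passed, and 1 was lower and 0 higher at an unadjusted p under 0.05 (limma). The smallest p was that of Ogn, osteoglycin, at 21.9 ± 1.73 against 50.5 ± 1.12 CPM (SD, n = 2 each; log2 fold change -1.17 ± 0.37, limma adjusted p = 1), followed by Col22a1 (-0.57 ± 0.27) and Ltbp1 (0.15 ± 0.08).

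With Vldlr overexpression the set was split evenly around 0. Of 37 genes 19 were positive and 18 negative (21 positive with median centring and 14 with quantile normalization), with a median log2 fold change of 0.00, against -0.03 for all 13860 genes. None of the 37 was called (0, where 0.00722% of all genes were), and 0 passed an unadjusted p under 0.05, where 1.36% of all genes were higher and 3.15% lower (limma). Both Vldlr OE libraries were above both Control columns in 4 genes and below in 2, where 9.54% and 15.5% of all genes were. The Control group rests on assignment by elimination.

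The 2 Vldlr OE libraries differed from each other in several matrix genes by more than the groups did. Col1a1 was at 17641 and 21943 CPM in Vldlr OE and at 19845 and 21942 CPM in Control, and Fn1 at 7645 and 10987 against 9668 and 8474 CPM. Lamc1, the laminin gamma-1 chain, was at 907 and 1264 against 1181 and 1212 CPM. Replicate 1 was the lower of the Vldlr OE libraries for each, and the groups overlapped. The same holds for Vcan, at 289 and 375 against 337 and 415 CPM, and for Col12a1, at 231 and 406 against 343 and 483 CPM.

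Col12a1 had the largest negative fold change of the set (log2 fold change -0.41 ± 0.23, limma adjusted p = 0.958). Postn was at 744 and 698 CPM against 721 and 1194 CPM, where the Control columns differed the most (log2 fold change -0.36 ± 0.19, limma adjusted p = 0.958). It was -0.73 without Control column 1 and -0.00092 without Control column 2. Col3a1 was at 8449 and 8955 against 7931 and 9363 CPM. The genes that were lower without overlap were Col1a2, at 5254 and 5425 against 5579 and 5894 CPM, and Tgfbi, at 20.4 and 19.0 against 21.6 and 25.5 CPM. Those that were higher were Spp1 at 892 and 797 against 762 and 793 CPM, Fbln2 at 1412 and 1632 against 1366 and 1361 CPM, Plod2 at 956 and 964 against 955 and 776 CPM, and P4ha1 at 389 and 404 against 372 and 381 CPM. All 5 collagen processing genes were positive, by 0.02 to 0.16, and 3 of 5 were without Vldlr OE replicate 1. Of 80 other matrix genes 0 passed, with 3 higher and 2 lower at an unadjusted p under 0.05 (limma), and those with the smallest p were Npnt (-0.47 ± 0.15), Hapln3 (0.40 ± 0.15) and Ogn (0.93 ± 0.37).

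Thbs1 siRNA was measured in a table of its own, with 4 libraries and 13416 genes tested. Of 37 matrix genes 0 were called, where 0.0447% of all genes were, and at an unadjusted p under 0.05 there were 1 higher and 2 lower, where 3.03% and 2.49% of all genes were (limma). The median log2 fold change was -0.04, against 0.03 for all genes, and 24 of 37 were negative (26 with median centring and 21 with quantile normalization). Both si-Thbs1 libraries were below both controls in 9 genes and above in 6, where 10.8% and 18.5% of all genes were.

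Small leucine-rich proteoglycans, which coat collagen fibrils, were the role that stood lowest, with 4 of 5 lower without overlap and a median log2 fold change of -0.38. Lum was at 503 and 477 CPM with si-Thbs1 and at 693 and 749 CPM in the control, a log2 fold change of -0.56 ± 0.13 with a 95% interval of -0.89 to -0.23 (limma adjusted p = 0.471). Dcn was at 547 and 430 against 612 and 672 CPM, Fmod at 379 and 266 against 423 and 405 CPM, and Bgn, biglycan, at 3615 and 3832 against 4205 and 4330 CPM. Both si-Thbs1 libraries were below both controls for each of these, and none passed. The role's other member, the large proteoglycan Vcan, was at 206 and 279 against 220 and 259 CPM.

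Matricellular genes again went both ways. Spp1 was at 497 and 530 CPM against 663 and 711 CPM, lower without overlap (log2 fold change -0.42 ± 0.13, limma adjusted p = 0.688). Tnc was at 107 and 147 CPM against 83.6 and 93.1 CPM, higher without overlap (log2 fold change 0.50 ± 0.19, limma adjusted p = 0.867). Postn was at 1168 and 1660 CPM against 1541 and 2462 CPM, so its groups overlapped.

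For fibrillar collagens the libraries of a group lay far apart. Col1a1 was at 14980 and 17975 CPM against 16923 and 18884 CPM, Col3a1 at 6723 and 8620 against 8602 and 10185 CPM, and Fn1 at 7391 and 8825 against 7642 and 8562 CPM. Replicate 1 was the lower library of its group in each of these 3 genes. Col5a2 was at 918 and 1041 against 881 and 831 CPM, and Col4a1 at 2470 and 2523 against 2308 and 2181 CPM, higher without overlap.

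The other genes with the smallest p of their role were Col12a1, at 228 and 205 CPM against 185 and 105 CPM, Mfap5, at 2.66 and 1.67 against 1.31 and 0.689 CPM, and Pcolce, the enhancer of procollagen trimming, at 765 and 807 against 891 and 1016 CPM. None passed (limma adjusted p = 0.989, 0.93 and 1). P4ha1 separated by replicate number and not by group, at 421 and 189 against 403 and 199 CPM. Of 78 other matrix genes 0 passed, with 6 higher and 5 lower at an unadjusted p under 0.05 (limma), and with the smallest p for Acan, aggrecan, at 7.47 ± 0.362 against 3.22 ± 0.107 CPM (SD, n = 2 each; log2 fold change 1.00 ± 0.17, limma adjusted p = 0.471), Efemp1 (-0.56 ± 0.13) and Col9a3 (0.80 ± 0.23). Fibroblast markers outside the set summed to 5253 and 5387 CPM against 4854 and 4961 CPM, although 8 of the 15 had a negative log2 fold change (median -0.01). Epicardial markers summed to 169 and 189 CPM against 203 and 215 CPM, and cardiomyocyte markers to 49802 and 30046 against 43291 and 34590 CPM; their part in the result was not tested. For 33 of the 37 genes the 95% interval excluded a 2-fold change.

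In mouse no comparison of genotypes called a matrix gene, or any of the 14922 genes tested (0 and 0% in each, limma). At an unadjusted p under 0.05 there were also 0 matrix genes in each of the 3 comparisons, where 0.617% of all genes were higher and 2.42% lower in Cre homozygotes against floxed controls. The same shares were 0.932% and 1.49% for Cre heterozygotes against floxed controls and 0.221% and 0.704% between the Cre genotypes. The widths of the intervals limit what these 9 libraries can show: the 95% interval excluded a 2-fold change for 28 of 40 genes in Cre homozygotes against floxed controls and for 25 of 40 in each of the others. In Cre homozygotes against floxed controls 17 of 40 were positive, with a median of -0.06, but 25 of 40 were with median centring or quantile normalization, and the median of all genes was -0.11. In Cre heterozygotes against floxed controls 24 of 40 were positive, with a median of 0.08, and 26 of 40 under either scaling. The comparisons share libraries, so their values are given side by side.

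The major fibrillar collagens Col1a1, Col1a2 and Col3a1 were highest in a single library of Cre heterozygotes. Col1a1 was at 811, 522 and 635 CPM in Cre homozygotes, at 1237, 766 and 686 CPM in Cre heterozygotes, and at 585, 588 and 803 CPM in floxed controls. Its log2 fold change was -0.01 ± 0.28 for Cre homozygotes and 0.41 ± 0.28 for Cre heterozygotes, both against floxed controls (limma adjusted p = 0.997 and 0.999). The latter was 0.16 without Cre heterozygote replicate 1. Col3a1 was at 1226, 1360 and 1132 CPM, at 2070, 1679 and 1026 CPM, and at 1075, 923 and 1356 CPM in the same order of groups. The groups overlapped for both genes, and Cre heterozygote replicate 1 was the highest of the 9 libraries for each.

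Col1a2, which had the smallest p among fibrillar collagens for Cre heterozygotes, was at 1196, 780 and 672 CPM there and at 530, 606 and 717 CPM in floxed controls (log2 fold change 0.48 ± 0.26, limma adjusted p = 0.999). Col5a1 was at 226, 231 and 269 CPM in Cre homozygotes against 315, 214 and 332 CPM in floxed controls. Between the Cre genotypes all 5 fibrillar collagens were negative, also under both scalings, with a median log2 fold change of -0.31 for Cre homozygotes minus heterozygotes, where the median of all genes was -0.06. Without Cre heterozygote replicate 1 the difference of Col1a1 was -0.17 in place of -0.42. Epicardial markers moved with these genes in Cre heterozygotes against floxed controls and between the Cre genotypes. In Cre homozygotes against floxed controls 3 of 5 fibrillar collagens were positive (median 0.14). All 10 epicardial markers were positive in Cre heterozygotes against floxed controls (median 1.15) and 9 of 10 in Cre homozygotes (median 0.84). Between the Cre genotypes all 10 were negative (median -0.23), as were 12 of 15 fibroblast markers outside the set (median -0.18). Epicardial markers summed to 156 to 586 CPM in Cre heterozygotes, with the highest sum in replicate 1, to 192 to 399 CPM in Cre homozygotes and to 127 to 214 CPM in floxed controls. The part of those cells in the result was not tested.

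Basement membrane genes were mostly negative in both Cre genotypes against floxed controls, with 8 of 8 negative (median -0.20) in Cre homozygotes and 7 of 8 (median -0.30) in Cre heterozygotes, and with none past the test. Of the 13 other laminin and basement membrane genes tested, 8 were negative and 5 positive in each comparison (median -0.07 and -0.10). Network collagens were negative in 5 of 5 genes in Cre homozygotes (median -0.13) and 4 of 5 in Cre heterozygotes (median -0.08). The median of all genes was -0.11 in the first comparison and -0.06 in the second. Median centring moved the all-gene median by more than 0.1 in the first, to 0.01. There 7 of the 8 basement membrane genes of the set were negative, with a median of -0.08. Without Cre homozygote replicate 1, 5 of the 8 were negative. Smooth muscle and pericyte markers moved with these genes, with 8 of 11 negative in both comparisons (median -0.41 and -0.39) and sums of 2325 to 2686 CPM in Cre homozygotes, 2333 to 3200 CPM in Cre heterozygotes and 2675 to 3181 CPM in floxed controls. Their part in the result was not tested. Hspg2, perlecan, was at 400, 521 and 742 CPM in Cre homozygotes, at 396, 661 and 446 CPM in Cre heterozygotes and at 1109, 465 and 764 CPM in floxed controls (log2 fold change -0.45 ± 0.35 and -0.58 ± 0.35, limma adjusted p = 0.997 and 0.999). Floxed control replicate 1 was the highest library and the groups overlapped. Col18a1, the smallest p of the role between the Cre genotypes, was at 168, 120 and 164 CPM in Cre homozygotes and at 96.1, 165 and 127 CPM in Cre heterozygotes.

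Among network collagens, Col6a3 was at 56.8, 45.7 and 35.9 CPM in Cre homozygotes, at 64.2, 63.6 and 43.6 CPM in Cre heterozygotes and at 67.4, 40.9 and 82.5 CPM in floxed controls. Col12a1 was at 6.49, 15.6 and 15.8 CPM in Cre heterozygotes and at 13.7, 9.55 and 23.8 CPM in floxed controls. The groups overlapped for both genes, as they did for every network collagen in each comparison.

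Of the adhesive glycoproteins, Fbln2 was the one matrix gene whose groups did not overlap in any mouse comparison. It was at 312, 240 and 208 CPM in Cre heterozygotes and at 202, 160 and 198 CPM in floxed controls (log2 fold change 0.43 ± 0.23, limma adjusted p = 0.999), where 2.2% of all genes were higher and 3.77% lower without overlap. In Cre homozygotes it was at 229, 198 and 289 CPM, which overlapped floxed controls. For Cre homozygotes against floxed controls 0 matrix genes did not overlap, where 1.72% of all genes were higher and 6.81% lower, and between the Cre genotypes 0 did not, where the shares were 0.677% and 1.82%.

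Fn1 was at 371, 380 and 453 CPM in Cre homozygotes, 326, 517 and 312 CPM in Cre heterozygotes and 429, 274 and 398 CPM in floxed controls. Mfap4, a microfibril-associated glycoprotein, was at 34.6, 27.7 and 21.8 CPM in Cre homozygotes and at 56.7, 37.2 and 30.8 CPM in Cre heterozygotes (log2 fold change -0.53 ± 0.34, limma adjusted p = 1). The groups overlapped for both genes.

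Of all 40 genes the matricellular Spp1 had the widest interval. It was at 14.7, 12.3 and 17.0 CPM in Cre homozygotes, at 46.0, 2.82 and 3.70 CPM in Cre heterozygotes and at 0.952, 30.2 and 1.76 CPM in floxed controls. A single library was far above the other libraries of its group in both Cre heterozygotes (replicate 1) and floxed controls (replicate 2). The log2 fold change of 1.49 ± 1.09 in Cre homozygotes against floxed controls had a 95% interval of -0.93 to 3.91 (limma adjusted p = 0.997). It was 0.74 without floxed control replicate 1, 0.99 without replicate 3 and 2.74 without replicate 2.

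Postn was at 720, 763 and 580 CPM, at 607, 712 and 671 CPM and at 469, 548 and 720 CPM, in the order Cre homozygotes, Cre heterozygotes and floxed controls. Tgfbi, a collagen-binding adhesion protein, was at 46.1, 43.7 and 122 CPM, at 38.3, 59.2 and 78.7 CPM and at 53.2, 36.1 and 33.5 CPM. Tnc was at 29.9, 20.3 and 10.5 CPM in Cre homozygotes and at 31.6, 20.7 and 18.1 CPM in Cre heterozygotes. The groups overlapped for all 3 genes, and the highest Tgfbi value was that of Cre homozygote replicate 3.

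Among proteoglycans and processing enzymes the groups overlapped too. Dcn was at 192, 297 and 301 CPM in Cre homozygotes, 342, 250 and 247 CPM in Cre heterozygotes and 222, 188 and 252 CPM in floxed controls. Fmod was at 27.6, 18.3 and 24.9 CPM in Cre homozygotes against 29.0, 25.5 and 43.3 CPM in Cre heterozygotes. Plod1 was at 81.3, 84.2 and 93.3 CPM, at 54.0, 101 and 83.0 CPM and at 120, 81.4 and 110 CPM, in the order of genotypes used above.

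Plod2 was at 36.1, 22.8 and 26.6 CPM in Cre homozygotes and at 51.9, 28.0 and 40.4 CPM in Cre heterozygotes (log2 fold change -0.46 ± 0.30, limma adjusted p = 1). Serpinh1 ranged over the 9 libraries from 66.3 CPM in floxed control replicate 2 to 331 CPM in Cre heterozygote replicate 2.

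Libraries of the Cre genotypes were paired by replicate number, a pairing inferred from these data and stated by no label. Pair 2 joins libraries that differ in the Y-linked gene Ddx3y, at 28.9 CPM in the Cre homozygote and 0 CPM in the Cre heterozygote. Within pairs 9 of the 40 genes were lower in Cre homozygotes in all 3, where 18.3% of all genes were. These were Col1a1, Col1a2, Col6a3, Fbln5, Mfap4, Tnc, Fmod, Plod2 and Serpinh1, and with median centring or quantile normalization 8 of them were (all but Tnc), where 10.5% and 11.5% of all genes were. None (0) of the 40 was higher in all 3 pairs, where 6.11% of all genes were, but Col4a1 and Nid1 were with median centring. With the pairs as a block, each of the 9 had a limma adjusted p of 0.999.

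Of 88 other matrix genes 0 passed in the mouse comparisons (limma). At an unadjusted p under 0.05 there were 1 higher and 3 lower for Cre homozygotes and 1 higher and 0 lower for Cre heterozygotes, both against floxed controls, and 0 higher and 2 lower between the Cre genotypes. Egflam, a retinal and muscle matrix protein also called pikachurin, was at 9.60 ± 7.62 CPM in Cre homozygotes against 24.5 ± 5.61 CPM in floxed controls (SD, n = 3 each; log2 fold change -1.54 ± 0.48, limma adjusted p = 0.997), followed by Ltbp2 (-1.13 ± 0.37) and Smoc1 (0.65 ± 0.27). Against Cre heterozygotes, Cre homozygotes had -1.27 ± 0.48 for Egflam, -0.90 ± 0.37 for Ltbp2 and -0.66 ± 0.35 for Podn. For Cre heterozygotes against floxed controls the smallest p-values were those of Smoc1 (0.66 ± 0.27), Podn (0.78 ± 0.35) and Lamb3 (0.72 ± 0.33).

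Libraries with a Y-linked transcript were not spread evenly over the genotypes. The Y-linked gene Ddx3y was above 1 CPM in Cre homozygote replicate 2 and floxed control replicates 2 and 3, at 28.9, 51.4 and 59.9 CPM, and in no library of Cre heterozygotes. With a term for it, an alternative chosen after seeing the data, 0 matrix genes were called in any of the 3 comparisons.

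**Figure D4:**
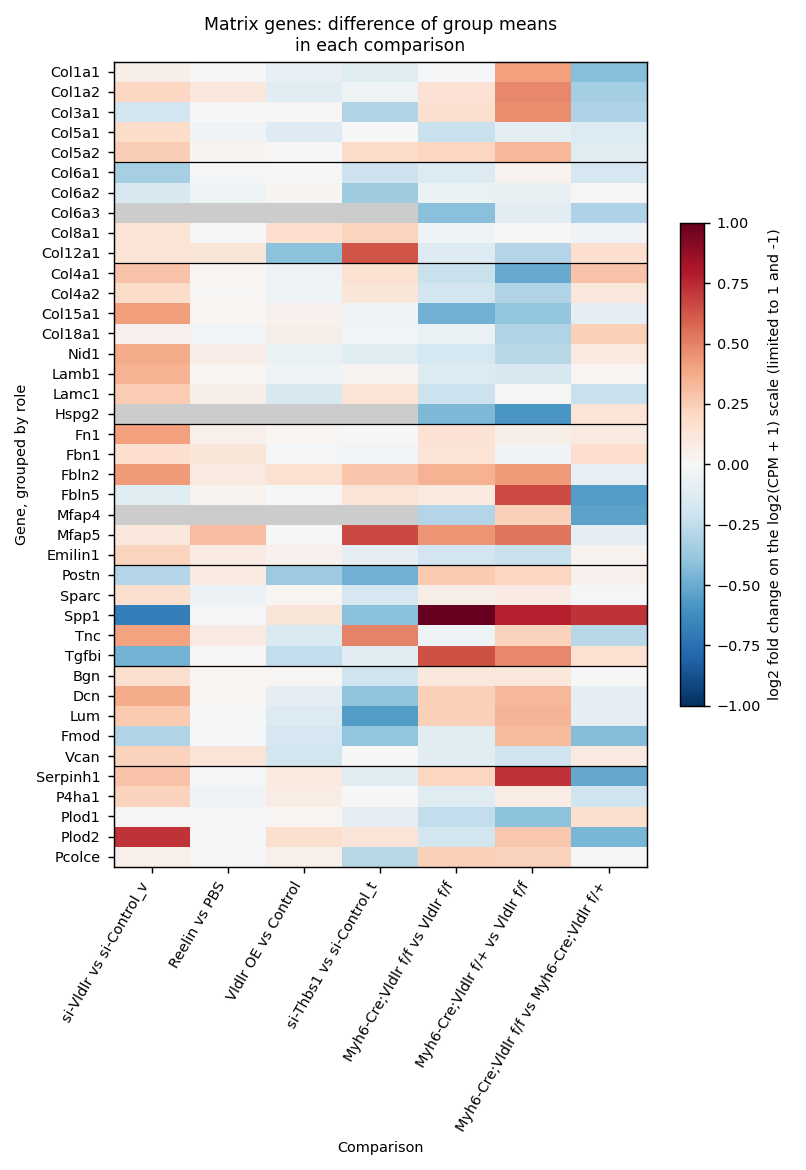
log2 fold change (colour, log2(CPM + 1) scale, limited to 1 and -1) of each matrix gene (rows, grouped by role between lines) in the 4 rat and 3 mouse comparisons (columns); grey marks genes not analysed here in rat. The si-Vldlr column is mostly positive (29 of 37), the Reelin column is near 0 (-0.06 to 0.31), and the basement membrane rows are negative in 8 of 8 genes for Cre homozygotes against floxed controls (7 of 8 with median centring); in none of the 7 columns does a gene pass the test.

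Between control cultures of the larger rat table, in contrast, matrix genes did pass the test. These cultures differ in transfection and time, and may differ in cell preparation, which cannot be told apart. Their libraries are also the controls of the treatments above, so these comparisons are not independent of those. In si-Control_v against PBS 6 of 37 genes were called, where 2.94% of all 13860 genes were (limma adjusted p under 0.05): Tnc, Col12a1, P4ha1, Spp1 and Col5a2 fell and Dcn rose. Of the 37, 28 were negative (31 with median centring and 26 with quantile normalization), and the median was -0.25, against 0.04 for all genes. At an unadjusted p under 0.05 there were 3 higher and 13 lower, where 9.64% and 6.17% of all genes were. Both si-Control_v libraries were below both PBS libraries in 23 genes and above in 5, where 19.1% and 31.7% of all genes were.

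Tnc was at 201 and 159 CPM in si-Control_v and at 355 and 354 CPM in PBS, a log2 fold change of -0.98 ± 0.14 (limma adjusted p = 0.00323). Col12a1 was at 206 and 206 CPM against 522 and 492 CPM (log2 fold change -1.29 ± 0.23, limma adjusted p = 0.0146). Spp1 was at 659 and 708 against 1060 and 1262 CPM (-0.76 ± 0.14, limma adjusted p = 0.018). The PBS libraries stood higher for all 3 genes, 2.46-fold in the mean of Col12a1, 1.97-fold for Tnc and 1.70-fold for Spp1.

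P4ha1 was at 347 and 320 CPM against 478 and 445 CPM (log2 fold change -0.47 ± 0.09, limma adjusted p = 0.0161). Col5a2 was at 1166 and 1053 CPM against 1717 and 1760 CPM (-0.65 ± 0.13, limma adjusted p = 0.0294). Dcn went the other way, at 482 and 662 CPM against 307 and 308 CPM (0.88 ± 0.19, limma adjusted p = 0.0357), and its si-Control_v libraries differed by more than its PBS libraries did.

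The other major matrix genes did not pass. Col1a1 was at 19505 and 20227 CPM against 24329 and 26229 CPM (log2 fold change -0.35 ± 0.21, limma adjusted p = 0.466), and all 5 fibrillar collagens were lower without overlap. Col3a1 was at 8582 and 9575 against 10678 and 11654 CPM. Postn was higher without overlap, at 1309 and 1491 against 891 and 1027 CPM (0.55 ± 0.19, limma adjusted p = 0.202), and Fn1 overlapped, at 9851 and 8741 against 9806 and 9510 CPM. Nid1, at 893 and 740 against 1196 and 1138 CPM, and Fbln2, at 1326 and 1019 against 1710 and 1681 CPM, were just outside the threshold (limma adjusted p = 0.0511 and 0.0584).

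Other matrix genes were called in the same contrast, 12 lower and 2 higher of 80. The 10 with the smallest p included Acan, with a log2 fold change of -1.86 ± 0.19 (limma adjusted p = 0.000331), the network chain Col8a2 (-0.95 ± 0.10), P4ha3 (-0.70 ± 0.07), the procollagen proteinase Tll1 (-1.37 ± 0.16), Col9a2 (-1.41 ± 0.18) and the fibrillar chain Col11a1 (-1.16 ± 0.16). Ltbp1 (-0.47 ± 0.08) and Ltbp4 (-0.73 ± 0.12), which hold latent TGF-beta in the matrix, and Srpx (-0.50 ± 0.09) fell as well, while Fbln1, fibulin-1, rose (1.04 ± 0.20). Smooth muscle and pericyte markers summed to 3658 and 4485 CPM in si-Control_v against 6088 and 6200 CPM in PBS. Cardiomyocyte markers summed to 37014 and 41498 against 31851 and 33038 CPM. Fibroblast markers summed to 5271 and 5395 against 6645 and 6706 CPM, although 6 of the 15 had a positive log2 fold change (median -0.15). The part of these markers in the result was not tested. Tnc was called in each of 12 alternatives, while the number of matrix genes called fell to 1 without si-Control_v replicate 2 or PBS replicate 2 and to 2 without PBS replicate 1, and rose to 9 without si-Control_v replicate 1; it was 2 with no filter and 2 with only the compared groups in the fit. With median centring 7 fell and 0 rose, and with quantile normalization 5 fell and 2 rose.

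In the Control columns against the same PBS libraries, 3 of 37 genes were called, where 2.86% of all 13860 genes were (limma), and each rose. Fmod was at 668 and 634 CPM in Control and at 312 and 313 CPM in PBS (log2 fold change 1.05 ± 0.15, limma adjusted p = 0.00692), a ratio of means of 2.08. Dcn was at 682 and 693 CPM against 307 and 308 CPM (1.16 ± 0.19, limma adjusted p = 0.0139). Fbln5, fibulin-5, which organises elastic fibres, was at 270 and 261 CPM against 177 and 184 CPM (0.55 ± 0.09, limma adjusted p = 0.0151).

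Of the set 24 of 37 were negative (20 with quantile normalization), with a median of -0.08, against 0.02 for all genes. At an unadjusted p under 0.05 there were 6 higher and 4 lower, where 7.84% and 6.96% of all genes were. In 18 genes both Control columns were below both PBS libraries and in 11 above, where 22.8% and 28.9% of all genes were. Col1a1 was at 19845 and 21942 against 24329 and 26229 CPM, Col3a1 at 7931 and 9363 against 10678 and 11654 CPM, and Spp1 at 762 and 793 against 1060 and 1262 CPM (limma adjusted p = 0.635, 0.339 and 0.0655). All 5 fibrillar collagens were again lower without overlap. Fn1, at 9668 and 8474 against 9806 and 9510 CPM, was below PBS for 1 column only, so its groups overlapped, and those of Postn did too, at 721 and 1194 against 891 and 1027 CPM.

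In the remaining roles, Col18a1 was at 323 and 357 against 431 and 477 CPM (log2 fold change -0.42 ± 0.10, limma adjusted p = 0.0636), Col8a1 at 382 and 344 against 278 and 270 CPM, and P4ha1 at 372 and 381 against 478 and 445 CPM. None of the 3 passed.

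Of 80 other matrix genes 6 rose and 2 fell. Ltbp1 (0.73 ± 0.08), Ecm1 (0.61 ± 0.07), Srpx2 (0.75 ± 0.09), Igfbp7 (0.56 ± 0.12), Prelp, a leucine-rich proteoglycan (0.47 ± 0.10), and Col13a1 (0.71 ± 0.16) rose, and Acan (-0.89 ± 0.19) was among those that fell. Fibroblast markers outside the set summed to 6956 and 7164 CPM in Control against 6645 and 6706 CPM in PBS, although 6 of the 15 had a negative log2 fold change (median 0.26). Macrophage markers summed to 575 and 885 against 966 and 1028 CPM. The part of these markers in the result was not tested. None of the 3 matrix genes was called (0) without Control column 1, PBS replicate 1 or PBS replicate 2, and each was called in 9 of 12 alternatives. With quantile normalization Spp1 was called as well, as lower.

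**Figure D5:**
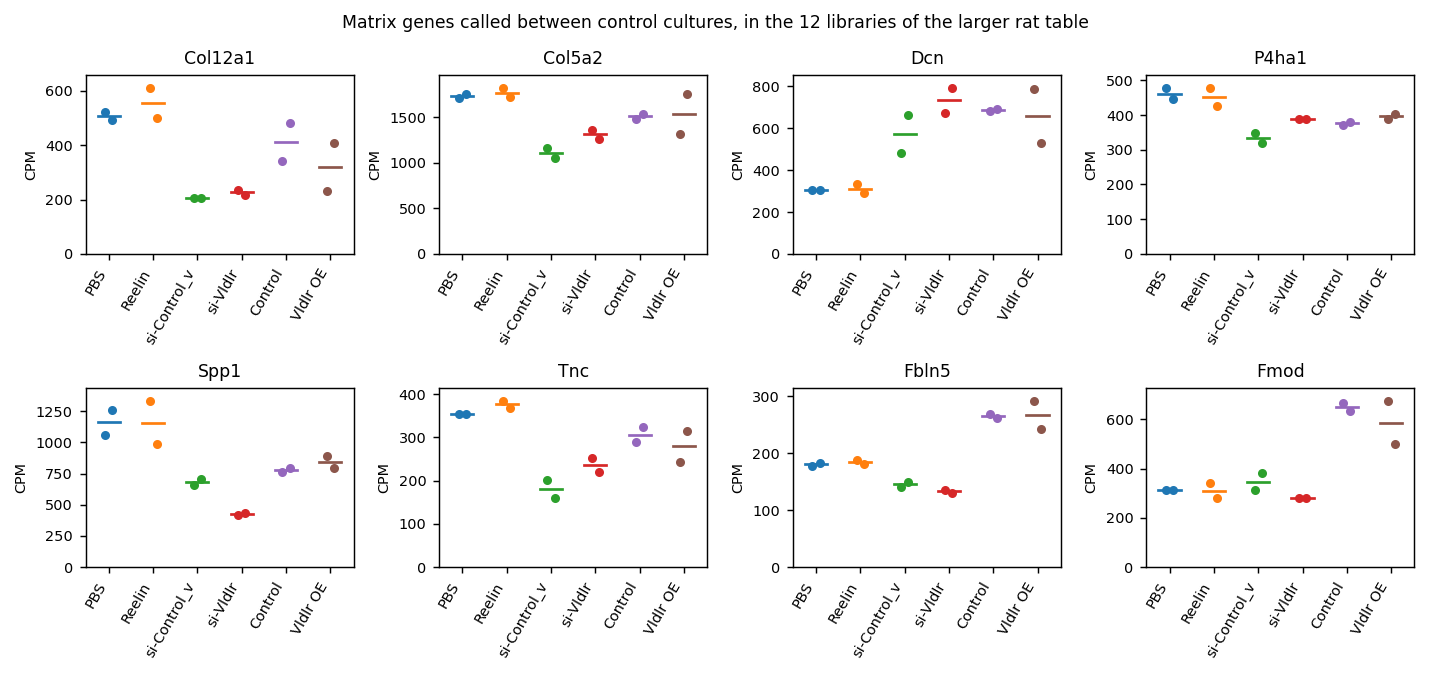
CPM (vertical axes, starting at 0) of the 8 matrix genes called between control cultures, in the 6 groups of the larger rat table; points are libraries and lines are group means. PBS and Reelin lie together in each panel, Col12a1 and Tnc are highest there, and Fmod and Fbln5 are highest in Control and Vldlr OE.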

How the data were processed

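The authors deposited CPM values for 25 libraries in 3 tables, each column scaled to a common total. Per the submitters' processing notes, rn6 and mm10 were the builds, and edgeR 3.20.9, StringTie 1.3.4 and HISAT2 2.1.0 were used; their roles are not stated. Reads could not be recovered from the values, whose steps sum to 66088372 to 97773386 per library without a step being shown to be a read, so depth is unknown, no count test was run and no counting interval is given. Columns were matched to samples by name, except the 2 columns of the Control group, assigned by elimination and given no replicate number. Rows with repeated names (4 per table) were left out.

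For each table log2(CPM + 1) of all its genes was fitted in R 4.3.3 by limma 3.58.1, with the trend option, 1 mean per group, genes with at least 1 CPM in 2 rat or 3 mouse libraries, Benjamini-Hochberg adjustment over all genes tested and calls at 0.05. SE is that of the log2 fold change. The fit was tested on simulated data. Values are given per library for Col1a1, Col3a1, Fn1, Postn, Spp1, every called gene and the gene with the smallest p in each role, and for some others described beside them, chosen after their values were seen. Of the 105 other matrix genes listed, up to 10 called genes or else the 3 with the smallest p are named. The members, lists and comparisons were chosen with earlier results of these data known.

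Pairing by replicate number was inferred from these data, and changes within pairs were counted only between the Cre genotypes. Same-numbered libraries deviated together there (correlations 0.459, 0.439 and 0.333), and they also did in si-Thbs1 (correlation 0.409). The fit behind the reported values has no term for pairs, except where a block is named. Alternatives were the pseudocount, the filter, centring, quantile normalization, no trend, only the compared groups, the replicate block and each library left out. Promoter sequences are from RefSeq on GRCr8; 9 genes had no match there. Mouse exon lengths are from GENCODE M21. The values of 1 other matrix gene that fell in Control against PBS are not reported here.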

Additional observations from a re-analysis of the deposited data

How the results depend on the processing

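The number of matrix genes called was 0 under each alternative for Reelin (13 alternatives), Vldlr OE (12), si-Thbs1 (12) and the 3 mouse comparisons (16 each). For si-Vldlr it was 0 to 3 with a library left out, and the median log2 fold change of the set was 0.1383 to 0.2224 then and 0.2306 with median centring. For Cre homozygotes against floxed controls the median ranged from -0.1919 to 0.129 with a library left out, the latter without floxed control replicate 3. For si-Control_v against PBS 1 to 9 genes were called with a library left out, 2 with no filter and 2 with only the compared groups; the median was -0.2675 to -0.2369 with a library left out, -0.3381 with median centring and -0.1905 with quantile normalization. For Control against PBS 0 to 3 were called with a library left out, with a median of -0.1277 to -0.03971, and the median was -0.007043 with quantile normalization.

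Several log2 fold changes changed sign. With quantile normalization the log2 fold change was 0.301 for Col3a1 and 0.04582 for Spp1 (Reelin), -0.02874 for Col3a1 and -0.1718 for Fn1 (Vldlr OE), 0.2168 for Fn1 (si-Thbs1), 0.04873 for Col1a1 (Cre homozygotes against floxed controls, 0.1096 with median centring), 0.03127 for Fn1 (si-Control_v against PBS) and 0.1019 for Fn1 (Control against PBS). With the Ddx3y term, added after seeing the data, Fn1 was -0.1061 in Cre heterozygotes against floxed controls and Postn -0.06412 between the Cre genotypes. With a library left out, the values ranged for Reelin from -0.05713 to 0.05133 (Col1a1), -0.07032 to 0.0559 (Col3a1), -0.02643 to 0.134 (Fn1), -0.01134 to 0.1927 (Postn) and -0.2284 to 0.2012 (Spp1). For Vldlr OE they ranged from -0.2423 to 0.07252 (Col1a1), -0.1062 to 0.1331 (Col3a1) and -0.2437 to 0.2795 (Fn1), and for si-Thbs1 from -0.255 to 0.00795 (Col1a1) and -0.1301 to 0.1257 (Fn1). Cre homozygotes against floxed controls gave -0.1765 to 0.1407 (Col1a1) and -0.04877 to 0.2726 (Fn1), Cre heterozygotes against them -0.1761 to 0.1876 (Fn1) and -0.3824 to 2.024 (Spp1), and the Cre genotypes -0.03975 to 0.3239 (Fn1) and -0.03401 to 0.1635 (Postn). Against PBS, Fn1 gave -0.1438 to 0.02876 in si-Control_v and -0.1884 to 0.001708 in Control, where Postn gave -0.4075 to 0.3199. The causes were not tested.

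Over all genes the number called ranged over the alternatives from 3 to 167 (si-Vldlr, 4 as reported), 1 to 13 (Reelin, 2), 1 to 257 (Vldlr OE, 1), 0 to 185 (si-Thbs1, 6), 180 to 613 (si-Control_v against PBS, 408) and 53 to 464 (Control against PBS, 397). The libraries behind the highest were si-Control_v replicate 1 (167 and 613), Vldlr OE replicate 2 (257) and si-Control_t replicate 1 (185). With the replicate block 0 matrix genes were called in each comparison that allowed it, so the block changed no call of a matrix gene; for si-Thbs1, 43 of all genes were called with it. Same-numbered libraries deviated together in si-Thbs1 (correlation 0.409) and si-Vldlr (0.156) but not in Reelin (-0.0632), with 2 pairs each.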
